A study of Rattus norvegicus and Mus musculus with 3 samples.

Results

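The Rab family of small GTPases was examined in hippocampal RNA, gene by gene. Members were taken by name, as every gene whose symbol is Rab followed by a number and at most one letter from a to d. This gave 58 of the 30438 genes in the tables of both rats and 59 of the 34714 genes in the mouse table, 59 members in all once the mouse names Rab7, Rab9 and Rab39 were matched to Rab7a, Rab9a and Rab39a of the rat. The rule uses the symbol and no measured value. The role groups (early endosome, recycling, late endosome, secretory, other) follow general knowledge of the proteins.

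The data comprise 3 libraries of whole hippocampus, 1 per group, so no difference below has a replicate check. The 2VO library came from a rat of 3 to 4 months. The name 2VO commonly stands for closing both common carotid arteries, a way of lowering blood flow to the brain. The mouse library is labelled wild type within the 3xTg-AD model, whose transgenic mice carry human Alzheimer's disease genes, and came from an age of 6 months. Transgenic mice were not analysed here. The Sham library, from a rat of 3 to 4 months, is the surgical control of the 2VO rat. The labels give the genotype of all 3 as WT, and the sources used here do not name strain or sex, or how many animals stand behind a library.

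Rab proteins are molecular switches of membrane traffic. In the GTP-bound state a Rab sits on 1 kind of membrane and recruits effectors that move, tether or fuse vesicles, and in the GDP-bound state it is extracted and held in the cytosol by GDI. In neurons the family is known for synaptic vesicle release (Rab3), endosome fusion (Rab5), return of receptors to the surface (Rab4 and Rab11), delivery to lysosomes (Rab7) and transport through the Golgi (Rab1, Rab2 and Rab6).

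The deposited tables hold normalized values of unstated unit, called units here. Summed values were 333941 units in 2VO, 268889 in the mouse and 325636 in Sham, and the genes above 0 numbered 21985 in 2VO, 24001 in the mouse and 22338 in Sham. Sequencing depth is unknown. Levels of different genes are set side by side on the reading that the values are scaled to transcript length: over 5 equal bins of mouse protein-coding genes by transcript length, with median lengths from 781 to 5037 bases, the median value was between 8.67 and 12.2 units and was highest for the shortest genes. All 8 hippocampal neuron markers chosen were above 0 in each library, with summed values of 1054 units in 2VO, 873 in the mouse and 1215 in Sham. The markers found for every other cell type read below were also above 0, so this does not tell tissues apart.

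The rats were compared by the log2 ratio of (2VO + 1) to (Sham + 1), over the 13550 genes whose mean in the rats was at least 1 unit. Such genes are called measured. Of the 58 rat members 51 were measured. Of these, 40 were higher and 11 lower in 2VO by any amount, or 78.4% higher. Among all measured genes 58.7% were higher and 41.3% lower. The median log2 ratio was 0.09 over the Rab genes and 0.04 over all measured genes. After scaling to equal upper quartiles, 33 Rab genes were higher and 18 lower, or 64.7% higher, beside 50.6% of all measured genes. The differences were small: Rab log2 ratios ran from -0.27 to 0.83 with an SD of 0.20, and the SD over all measured genes was 0.24.

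By size, 1 Rab gene was at least 1.5-fold higher in 2VO and 0 were 1.5-fold lower, beside 1.51% and 0.967% of all measured genes. Counting from a ratio of (2VO + 1) to (Sham + 1) of 25% above 1, or its inverse for lower genes, 6 Rab genes (11.8%) were higher and 0 lower, beside 8.1% and 4.58% of measured genes. These 6 were Rab3c, Rab37, Rab29, Rab26, Rab3a and Rab5b. Rab5b was under 25% in each of the 4 other scalings and centrings and with 4 units added, and Rab3a under median-of-ratios scaling. Both counts are near what the whole table shows at those sizes. No Rab gene was 2-fold apart in either direction, beside 0.244% of genes higher and 0.199% lower.

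**Figure D1:**
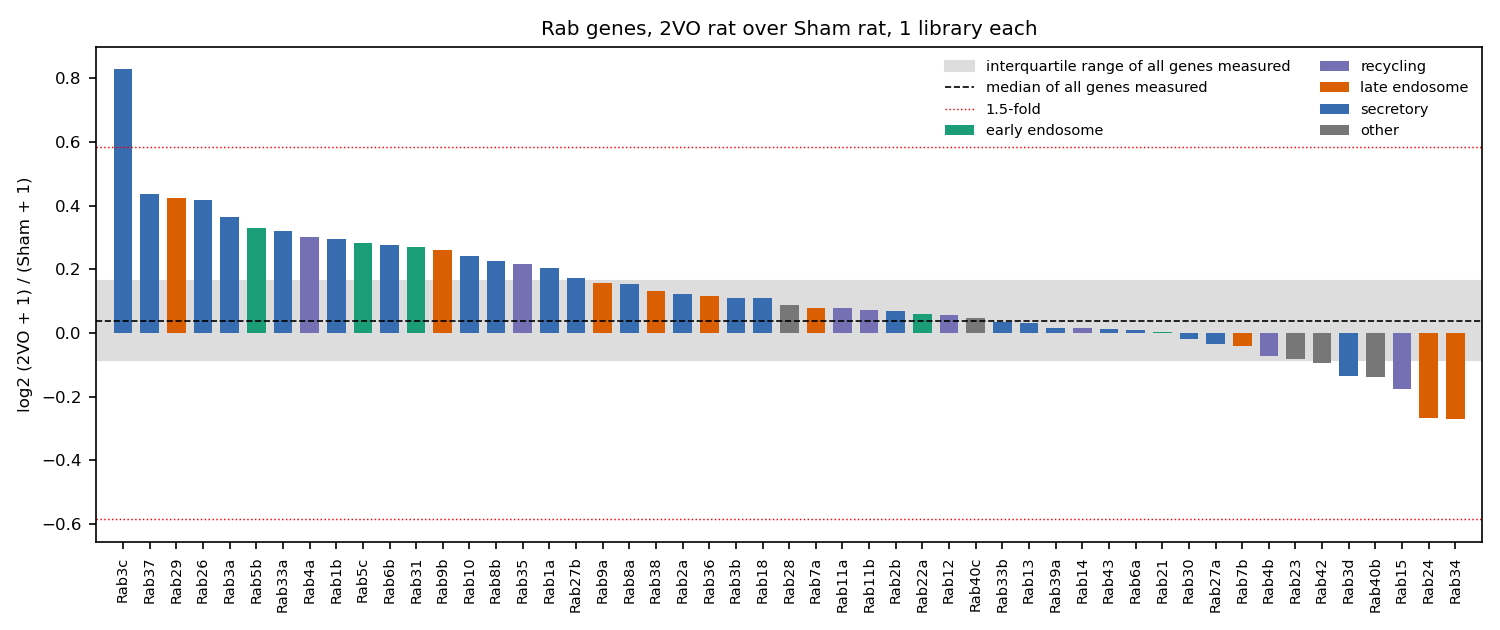
Log2 of (2VO + 1) over (Sham + 1) for the 51 measured Rab genes in descending order and coloured by role. The grey band is the interquartile range of all 13550 measured genes and the dashed line their median of 0.04. Rab3c alone passes the dotted 1.5-fold line, and the bars run from 0.83 to -0.27.

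Across the libraries the family held 2111 units in 2VO, 1841 in the mouse and 1895 in Sham, or 0.632% of the summed values in 2VO, 0.685% in the mouse and 0.582% in Sham. At least 10 units were reached by 37 members in 2VO, 36 in the mouse and 36 in Sham. Among the genes above 0, members above 0 had a median percentile of 79.5 in 2VO, 81.6 in the mouse and 77.8 in Sham. That base is wide, with 21985 genes in 2VO and 22338 in Sham beside the 13550 measured. The percentile among measured genes alone was not computed. Secretory members made up 57.1% of the family's summed values in 2VO, 59.3% in the mouse and 54.5% in Sham. Recycling members followed with 18.9% in 2VO, 16.9% in the mouse and 20.5% in Sham. Late endosome members held 10.8% in 2VO, 10.2% in the mouse and 11.9% in Sham, and early endosome members 8.99% in 2VO, 10.1% in the mouse and 8.47% in Sham. The order of these shares was the same in each library, with late and early endosome members close together in the mouse. The early endosome share of the mouse counts Rab5a at 40.7 units. The rat shares leave out the Rab5a-like gene Rab5al1, at 22.9 units in 2VO and 19.7 in Sham, so the species are not compared on this share.

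**Figure D2:**
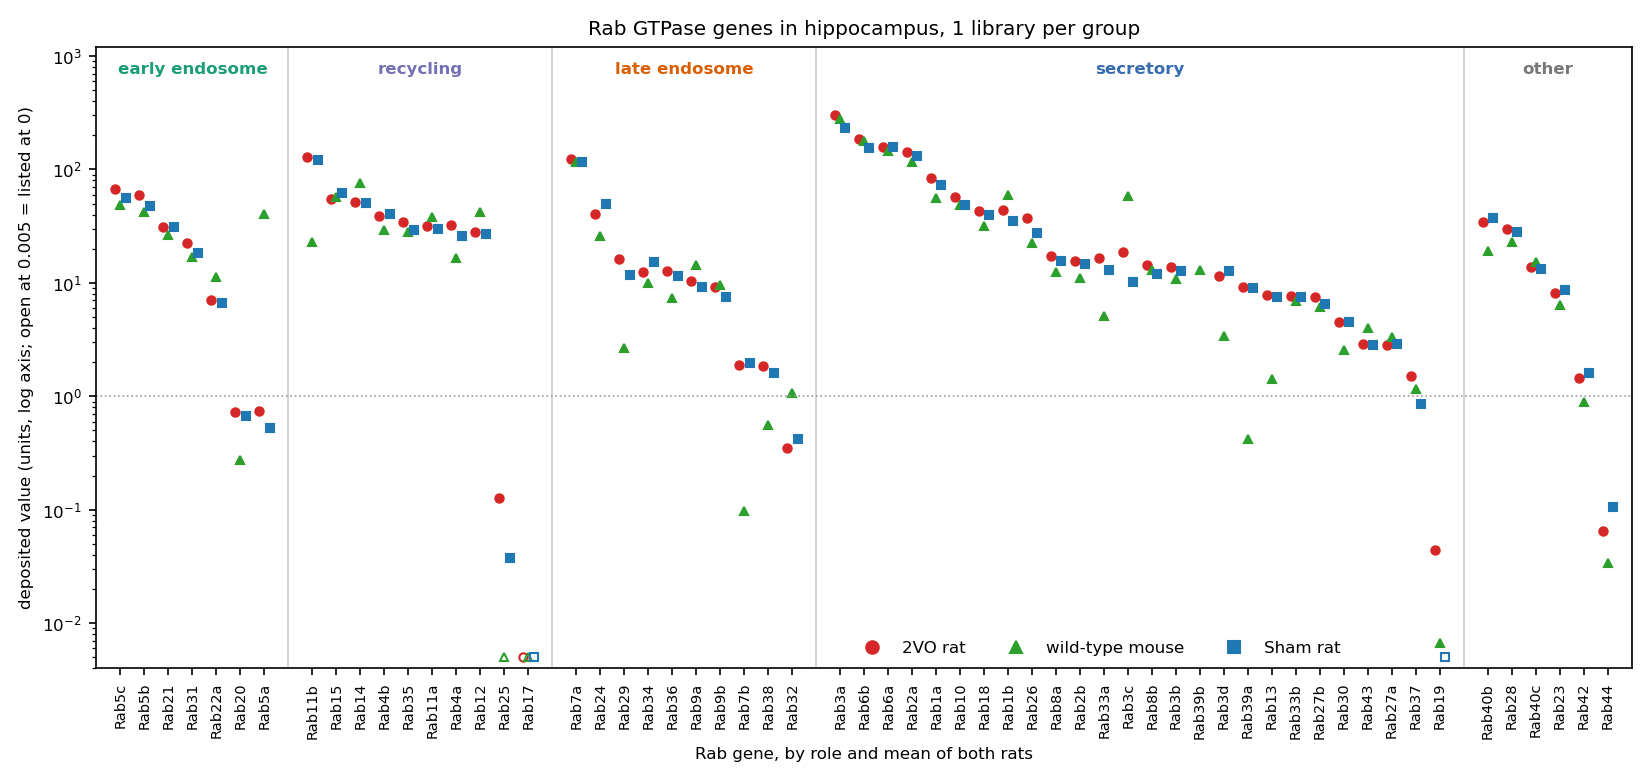
Deposited values of the 59 Rab genes on a log axis, grouped by role and ordered by the mean of both rats, with 1 point per library (2VO rat, wild-type mouse, Sham rat) and open symbols for genes listed at 0. The rat points lie close together for most genes, while Rab5a, Rab39a, Rab7b, Rab3c, Rab13, Rab11b and Rab29 are among those far apart between mouse and rat.

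Early endosome members were higher in 2VO in 5 of 5 measured genes, with a median log2 ratio of 0.27. Among all measured genes 58.7% were higher, with a median of 0.04. The early endosome count was 4 of 5 in each of the 4 other scalings and centrings, where Rab21 was lower. There 49.8% to 51.3% of all measured genes were higher. Rab5 proteins drive fusion of endocytic vesicles with early endosomes. Rab5b was 59.8 units in 2VO and 47.3 in Sham, a log2 ratio of 0.33. Rab5c was 67.9 units in 2VO and 55.6 in Sham, a log2 ratio of 0.28. Both paralogues thus stood above the interquartile range of all measured genes, which ran from -0.08 to 0.16. The upper quartile of the 51 measured Rab genes was itself higher, at 0.25. Standing above that range was therefore not particular to Rab5b and Rab5c. Rab31, which serves transport from the trans-Golgi network to early endosomes, was 22.4 units in 2VO and 18.3 in Sham. The remaining members were nearly level. Rab21, known for integrin endocytosis, was 31.4 units in 2VO and 31.3 in Sham, and Rab22a was 7.01 in 2VO and 6.69 in Sham. Rab20, of maturing endosomes and phagosomes, did not reach the filter, at 0.728 units in 2VO and 0.675 in Sham.

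Rab5a itself did not reach a mean of 1 unit in the rats, at 0.746 units in 2VO and 0.525 in Sham, against 40.7 in the mouse. The rat tables also list Rab5al1, a gene named as Rab5a-like and no member by the rule, at 22.9 units in 2VO and 19.7 in Sham. Summed over Rab5a and Rab5al1 the values were 23.6 units in 2VO and 20.2 in Sham, a log2 ratio of 0.22. The sources used here do not say how reads shared by such copies were assigned, so the low Rab5a value in the rats is not read as low expression. With the pair summed, an alternative chosen after seeing the data, the early endosome median was 0.24.

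Recycling members were close in both rats, with 6 higher and 2 lower of 8 measured and a median log2 ratio of 0.06. Among all measured genes 58.7% were higher. In the 4 other scalings and centrings 5 recycling members were higher and 3 lower, with Rab14 among the lower, and their median was 0.02 to 0.03. There 49.8% to 51.3% of all measured genes were higher. Rab11 marks the recycling endosome, which returns receptors to the surface of dendritic spines. Rab11b was 128 units in 2VO and 121 in Sham, and Rab11a was 31.8 in 2VO and 30.1 in Sham. Their log2 ratios were 0.07 for Rab11b and 0.08 for Rab11a. The fast recycling gene Rab4a was 32.4 units in 2VO and 26.1 in Sham, the highest log2 ratio of the group at 0.30, while its paralogue Rab4b was 38.5 in 2VO and 40.5 in Sham. Rab4a thus took 45.7% of the summed Rab4 values in 2VO and 39.2% in Sham. Rab35, another gene of fast recycling, was 34.4 units in 2VO and 29.5 in Sham. Rab14, of trans-Golgi to endosome traffic, was 51.4 in 2VO and 50.9 in Sham, and Rab12, which acts on transferrin receptor traffic, was 28.3 in 2VO and 27.2 in Sham. Rab15, found on endosomes of neurons, went the other way at 55.0 units in 2VO and 62.3 in Sham, a log2 ratio of -0.18. Rab25, an epithelial relative of Rab11, was 0.126 units in 2VO and 0.0379 in Sham, and Rab17 was listed at 0 in all 3 libraries.

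Late endosome and lysosome members were divided, with 6 higher and 3 lower of 9 measured and a median log2 ratio of 0.12. Among all measured genes 58.7% were higher. The late endosome and lysosome members held both the lowest and the third highest log2 ratios of the family. Rab7a, which brings late endosomes to lysosomes, was the most abundant of them at 123 units in 2VO and 116 in Sham. The genes of retrieval from late endosomes to the trans-Golgi network were slightly higher in 2VO. Rab9a was 10.4 units in 2VO and 9.21 in Sham, and Rab9b was 9.27 in 2VO and 7.57 in Sham. Rab29, which brings the kinase Lrrk2 to lysosomes and the trans-Golgi network, was 16.2 units in 2VO and 11.8 in Sham, a log2 ratio of 0.43. Its relatives of lysosome-related organelles were low, with Rab38 at 1.85 units in 2VO and 1.60 in Sham and Rab32 at 0.348 in 2VO and 0.425 in Sham.

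The 2 lowest log2 ratios of the family were those of Rab34 and Rab24. Rab34, which positions lysosomes and takes part in building cilia, was 12.5 units in 2VO and 15.3 in Sham, a log2 ratio of -0.27. Rab24, tied to clearance of autophagic vacuoles, was 40.7 units in 2VO and 49.3 in Sham, also -0.27. Both were 1.20-fold lower, just short of 25%. Rab36 was 12.6 units in 2VO and 11.6 in Sham, and Rab7b was 1.88 in 2VO and 1.96 in Sham.

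Secretory members were higher in 2VO in 21 of 24 measured genes, with a median log2 ratio of 0.14. Among all measured genes 58.7% were higher. The secretory count was 16 of 24 under upper-quartile scaling, median-of-ratios scaling and lowess centring, and the median 0.10. Rab6a, Rab13, Rab33b, Rab39a and Rab43 were lower there. Of all measured genes 50.6%, 50% and 49.8% were higher in that order. Within the secretory group the genes of regulated exocytosis had the highest median as deposited, at 0.27, with 6 of 8 higher. By at least 25%, 4 of these were higher, beside 8.1% of all measured genes. Rab37 fell under 25% with 4 units added, and Rab3a under median-of-ratios scaling. The 13 rat genes of the ER and Golgi, 12 of them measured, had a median of 0.09, and the 4 genes of constitutive exocytosis a median of 0.19. With 4 units added, regulated exocytosis was at 0.155 and constitutive exocytosis at 0.159, so their order depended on the amount added.

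Rab3a, the main Rab of synaptic vesicles, was the most abundant member in every library. It was 299 units in 2VO and 232 in Sham, a log2 ratio of 0.37, and its rank among all genes was 101 in 2VO and 161 in Sham. Rab3c, a paralogue that also rides on synaptic vesicles, was 18.8 units in 2VO and 10.2 in Sham, a log2 ratio of 0.83. It was the 1 Rab gene past 1.5-fold. The other two paralogues differed less. Rab3b was 13.8 units in 2VO and 12.7 in Sham, and Rab3d, known from granule exocytosis, was lower at 11.4 in 2VO and 12.6 in Sham. Rab3a therefore held 87.2% of the summed Rab3 values in 2VO and 86.8% in Sham, and Rab3c held 5.47% in 2VO and 3.79% in Sham.

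Rab26, of secretory granules and synaptic vesicles, was 37.3 units in 2VO and 27.7 in Sham, a log2 ratio of 0.42. Rab37, of secretory granules, was low at 1.52 units in 2VO and 0.862 in Sham. Its log2 ratio of 0.44 rests on the unit added, and became 0.18 with 4 units added. The Rab27 genes, of secretory granules and exosomes, differed little: Rab27b was 7.53 units in 2VO and 6.56 in Sham, a log2 ratio of 0.17, and Rab27a was 2.81 in 2VO and 2.91 in Sham.

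**Figure D3:**
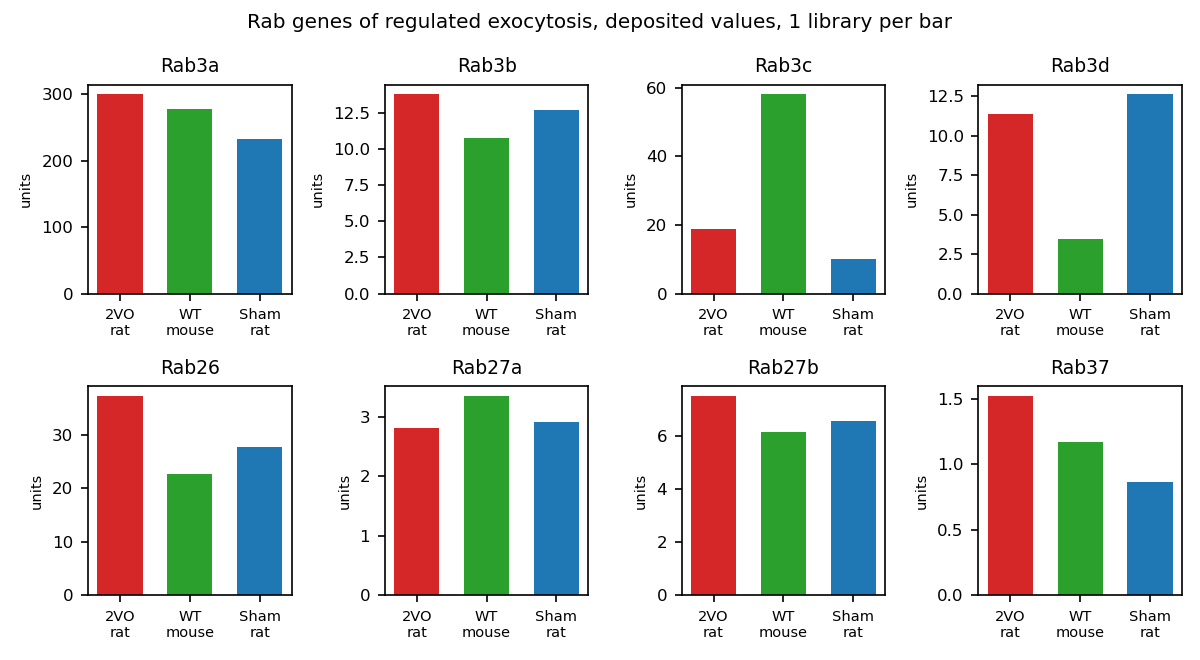
Deposited values in units of the 8 Rab genes of regulated exocytosis, 1 bar per library (2VO rat, wild-type mouse, Sham rat), each panel on its own axis from 0. Rab3c stands at 18.8 units in 2VO, 58.1 in the mouse and 10.2 in Sham, and Rab3a at 299, 278 and 232 in the same order.

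Promoter sequences of 3 of the genes at least 25% higher in 2VO are shown for reference, since Rab3a and Rab3c are paralogues at very different levels and Rab29 is the late endosome gene with the highest ratio. Each window runs from 250 bases before to 50 bases after the annotated start, 5′ to 3′ on the gene's strand, from RefSeq on the rat assembly GRCr8, which is a different build from the one named for the deposited values. Capitals mark the GC box GGGCGG and the CRE half-site TGACG on either strand. The windows are chr16:18722224-18722523 on the minus strand for Rab3a, chr2:43575894-43576193 on the minus strand for Rab3c and chr13:45859788-45860087 on the plus strand for Rab29.
Rab3a: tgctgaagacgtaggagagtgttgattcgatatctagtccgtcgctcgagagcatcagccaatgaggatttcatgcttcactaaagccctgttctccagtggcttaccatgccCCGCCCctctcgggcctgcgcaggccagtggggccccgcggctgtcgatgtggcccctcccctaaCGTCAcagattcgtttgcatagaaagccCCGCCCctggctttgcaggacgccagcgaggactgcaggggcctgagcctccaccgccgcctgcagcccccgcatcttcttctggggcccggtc
Rab3c: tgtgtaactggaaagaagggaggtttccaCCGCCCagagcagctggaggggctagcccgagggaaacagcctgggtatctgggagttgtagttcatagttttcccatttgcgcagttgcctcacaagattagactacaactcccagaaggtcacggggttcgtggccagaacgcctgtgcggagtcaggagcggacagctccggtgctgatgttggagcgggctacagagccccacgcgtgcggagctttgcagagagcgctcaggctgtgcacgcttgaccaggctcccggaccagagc
Rab29: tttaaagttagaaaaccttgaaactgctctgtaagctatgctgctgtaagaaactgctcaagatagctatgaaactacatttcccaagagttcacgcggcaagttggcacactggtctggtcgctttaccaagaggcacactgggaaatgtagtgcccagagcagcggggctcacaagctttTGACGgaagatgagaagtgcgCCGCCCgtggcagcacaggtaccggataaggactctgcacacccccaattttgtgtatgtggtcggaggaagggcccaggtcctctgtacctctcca
The Rab3a window held 2 GC boxes, 1 CRE half-site and 20 CpG dinucleotides, the Rab3c window 1 GC box, 0 half-sites and 16 CpG, and the Rab29 window 1 GC box, 1 half-site and 10 CpG.

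Promoter windows were matched for 40 of the 51 measured Rab genes. The GC box was present in 35 of the 40 (87.5%), beside 63.3% of the 9622 windows of measured genes and 33.1% of all 33469 windows. CpG dinucleotides had a median of 21.5 per window in the Rab genes and 21.0 in measured genes. The TATA box TATAAA occurred in 0 of the 40 windows, beside 6.49% of measured genes. The CRE half-site was in 13 of 40 (32.5%), beside 32.4% of measured genes. The full CRE TGACGTCA, which contains the half-site, was in 0 of the 40 and in 3.20% of measured genes. The E-box CACGTG was in 2 of 40 and the CCAAT box, written CCAAT, in 17, beside 9.51% and 37.5% of measured genes. Such matches describe the letters of these windows only.

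Constitutive exocytosis members, which carry cargo to the plasma membrane, were all slightly higher in 2VO, except that Rab13 was lower in the 4 other scalings and centrings. Rab10 was 57.6 units in 2VO and 48.5 in Sham, and its relatives Rab8a and Rab8b were 17.4 and 14.3 in 2VO and 15.6 and 12.1 in Sham. Rab13, which delivers to cell junctions, was 7.75 units in 2VO and 7.56 in Sham. Their log2 ratios ran from 0.03 to 0.24.

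Among ER and Golgi members 11 were higher and 1 lower in 2VO, none by 25%. Of all measured genes 58.7% were higher, 8.1% of them all by at least 25%, and 4.58% were lower by that much. Under upper-quartile scaling, median-of-ratios scaling and lowess centring 7 ER and Golgi members were higher and 5 lower. In those settings 49.8% to 50.6% of all measured genes were higher. The count of higher ER and Golgi genes thus rests on the values as deposited. Rab6b, the form of Golgi Rab6 enriched in neurons, was 186 units in 2VO and 153 in Sham, a log2 ratio of 0.28, while the widely expressed Rab6a was 159 in 2VO and 158 in Sham. The order of the pair differed between the rats, with Rab6b at 53.9% of their sum in 2VO and 49.2% in Sham. The ER to Golgi genes Rab1a and Rab1b were 84.8 and 43.6 units in 2VO and 73.5 and 35.3 in Sham, log2 ratios of 0.20 and 0.30. Rab2a was 143 units in 2VO and 131 in Sham, and Rab2b was 15.6 in 2VO and 14.8 in Sham. Rab33a, of Golgi and axonal vesicles, was 16.6 units in 2VO and 13.1 in Sham, a log2 ratio of 0.32, and its paralogue Rab33b, which acts in autophagosome formation, was 7.70 in 2VO and 7.50 in Sham.

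The remaining Golgi members differed little between the rats. Rab18, of the ER and lipid droplets, was 42.6 units in 2VO and 39.4 in Sham. Rab39a was 9.19 in 2VO and 9.08 in Sham, Rab30 4.49 in 2VO and 4.56 in Sham, and Rab43 2.89 in 2VO and 2.86 in Sham. Rab19 was 0.0439 units in 2VO and listed at 0 in Sham. Rab39b, linked to neuronal receptor traffic, was read from the mouse table only, at 12.9 units.

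Members outside these roles were 2 higher and 3 lower of 5 measured, with a median log2 ratio of -0.08. Among all measured genes 58.7% were higher. The SOCS box genes Rab40b and Rab40c were 34.1 and 13.7 units in 2VO and 37.6 and 13.2 in Sham. Rab28, of cilia, was 29.8 units in 2VO and 28.0 in Sham, and Rab23, which restrains Hedgehog signalling, was 8.19 in 2VO and 8.74 in Sham. Rab42 was 1.44 units in 2VO and 1.61 in Sham. Rab44 was 0.0646 in 2VO and 0.107 in Sham, below the filter.

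Markers of several cell types moved between the same libraries. The 10 oligodendrocyte and myelin markers were all higher in 2VO, summing to 4900.2 units in 2VO and 3909 in Sham. Neocortex markers were higher in 5 of 6, summing to 63.7 units in 2VO and 40.9 in Sham, ependymal markers in 5 of 6, at 15.3 in 2VO and 9.82 in Sham, and both measured choroid plexus markers of 6, summing to 6.87 in 2VO and 1.49 in Sham over the list. Hippocampal neuron markers were lower in 7 of 8, and microglial markers in 7 of 8, at 120.0 units in 2VO and 166 in Sham. Astrocyte markers were 4 higher and 4 lower, at 1806 units in 2VO and 2082 in Sham. Gfap alone was 360.0 units in 2VO and 778 in Sham, and the other 7 summed to 1446 in 2VO and 1304 in Sham. Endothelial markers were 2 higher and 2 lower of 4 measured, at 47.8 in 2VO and 42.3 in Sham. The part of these shifts in the Rab values, Rab3a and Rab3c of neurons included, was not tested. In whole tissue, fewer cells of a type, less RNA per cell and a different extent of the tissue taken cannot be told apart.

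Genes that run the Rab cycle were read from 9 lists with 144 genes, of which 142 were found and 128 measured. In 2VO 73 were higher and 55 lower, or 57.0% higher, beside the 58.7% of all measured genes given above, and their median log2 ratio was 0.03. At 1.5-fold 2 were higher and 0 lower, beside 1.51% and 0.967% of measured genes. One was Rabif, a chaperone that holds nucleotide-free Rab proteins, at 5.93 units in 2VO and 3.00 in Sham. The other was Myo5b, a myosin motor that binds Rab11, at 10.7 units in 2VO and 5.18 in Sham, a log2 ratio of 0.92.

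Regulators of the switch lay near 0 as lists, and the median of the GTPase activating proteins fell below 0 in the 4 other scalings and centrings. The 7 measured genes of GDI and prenylation had a median log2 ratio of 0.08. Rabggtb, a subunit of the enzyme that attaches the lipid anchors, had the lowest at 38.5 units in 2VO and 41.4 in Sham. The 30 measured exchange factors, which load GTP, had a median of 0.04. Mon1a, part of the Rab7 exchange factor, was highest at 10.5 units in 2VO and 8.27 in Sham, and Dennd1c lowest at 4.22 in 2VO and 5.73 in Sham. The 32 measured GTPase activating proteins had a median of 0.02, with Tbc1d2b at 4.80 units in 2VO and 3.79 in Sham at the upper end. At the lower end was Rab3gap2, a subunit of the Rab3 GTPase activating complex, at 10.7 units in 2VO and 13.5 in Sham.

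Effector lists followed no common direction. The 13 early endosome effectors had a median log2 ratio of 0.01, which was below 0 in the 4 other scalings and centrings. They lay between Eea1, a Rab5 tether, at 6.39 units in 2VO and 4.68 in Sham, and Rabep2 at 5.93 in 2VO and 6.61 in Sham. The 14 late endosome effectors had a median of 0.11. Osbpl1a, a cholesterol sensor that binds Rab7, was 41.9 units in 2VO and 28.4 in Sham, and Rilp, the Rab7 adaptor to dynein, was 1.47 in 2VO and 1.78 in Sham. Exocytosis effectors had a median of 0.16 over 7 measured genes, and of 0.05 over all 13 with no filter on low values. Among them Rph3a, a Rab3 effector on synaptic vesicles, was lower at 55.3 units in 2VO and 69.9 in Sham, a log2 ratio of -0.33, whereas Sytl5 was 2.26 in 2VO and 1.61 in Sham. Recycling effectors had a median of -0.05, with Zfyve27 lowest at 22.1 units in 2VO and 23.3 in Sham. Golgi effectors had a median of -0.01, between Bicd1, an adaptor of Rab6 vesicles to dynein, at 4.63 units in 2VO and 3.91 in Sham, and Kif20a at 2.44 in 2VO and 3.23 in Sham. The 4 measured genes of Rab phosphorylation had a median of 0.06, with Rilpl1 at 23.4 units in 2VO and 19.4 in Sham and the kinase Lrrk2 at 4.88 in 2VO and 5.05 in Sham.

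The wild-type mouse was set beside the Sham rat to place the same members in another rodent. Species, genome build, age, animal and the surgery of the Sham rat cannot be told apart here. The comparison also shares the Sham library with the one above. Symbols found in both species and averaging 1 unit or more numbered 11439, 52 of them Rab genes. Over these the median log2 ratio of mouse to Sham was -0.12 over all genes and -0.18 over Rab genes. At least 2-fold higher in the mouse were 2 Rab genes (3.85%), beside 6.54% of all, and 7 were at least 2-fold lower (13.5%), beside 11.3%. Of the 6 most abundant members in Sham, 5 were close and Rab11b, given below, was not. Rab3a was 278 units in the mouse and 232 in Sham, Rab6b 179 in the mouse and 153 in Sham, Rab6a 146 in the mouse and 158 in Sham, Rab7a 117.1 in the mouse and 116 in Sham, and Rab2a 117.3 in the mouse and 131 in Sham.

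The 2 higher genes were Rab3c, at 58.1 units in the mouse and 10.2 in Sham, and Rab5a, at 40.7 in the mouse and 0.525 in Sham. With Rab5a and Rab5al1 of the rat summed, the second was no longer past 2-fold, at a log2 ratio of 0.98. The 7 lower genes were Rab39a, at 0.417 units in the mouse and 9.08 in Sham, Rab11b at 23.0 in the mouse and 121 in Sham, Rab13 at 1.41 in the mouse and 7.56 in Sham, Rab29 at 2.68 in the mouse and 11.8 in Sham, Rab3d at 3.43 in the mouse and 12.6 in Sham, Rab7b at 0.0971 in the mouse and 1.96 in Sham, and Rab33a at 5.09 in the mouse and 13.1 in Sham. Rab39b, at 12.9 units in the mouse, has no rat value, so the Rab39 pair could not be compared. With an average of 5 units or more required, the count of lower genes was 4.

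In several subfamilies the shares of the paralogues differed between mouse and rat. Rab11a held 62.5% of the summed Rab11 values in the mouse and 19.9% in Sham, beside 20.0% in 2VO. Rab3c held 16.6% of the Rab3 values in the mouse and 3.79% in Sham. Rab1a held 48.3% of the Rab1 values in the mouse and 67.6% in Sham, and Rab33a 42.3% of the Rab33 values in the mouse and 63.6% in Sham. Rab2a took 91.4% of its pair in the mouse and 89.9% in Sham, and Rab7a took 99.9% in the mouse and 98.3% in Sham. Members of a pair share sequence, so reads may be split between them. GENCODE M21 also names 4 Rab pseudogenes in the mouse (Rab11b-ps2, Rab5a-ps, Rab7-ps1 and Rab9b-ps1). The part of shared reads in the Rab11b, Rab5a and Rab39a values was not tested.

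**Figure D4:**
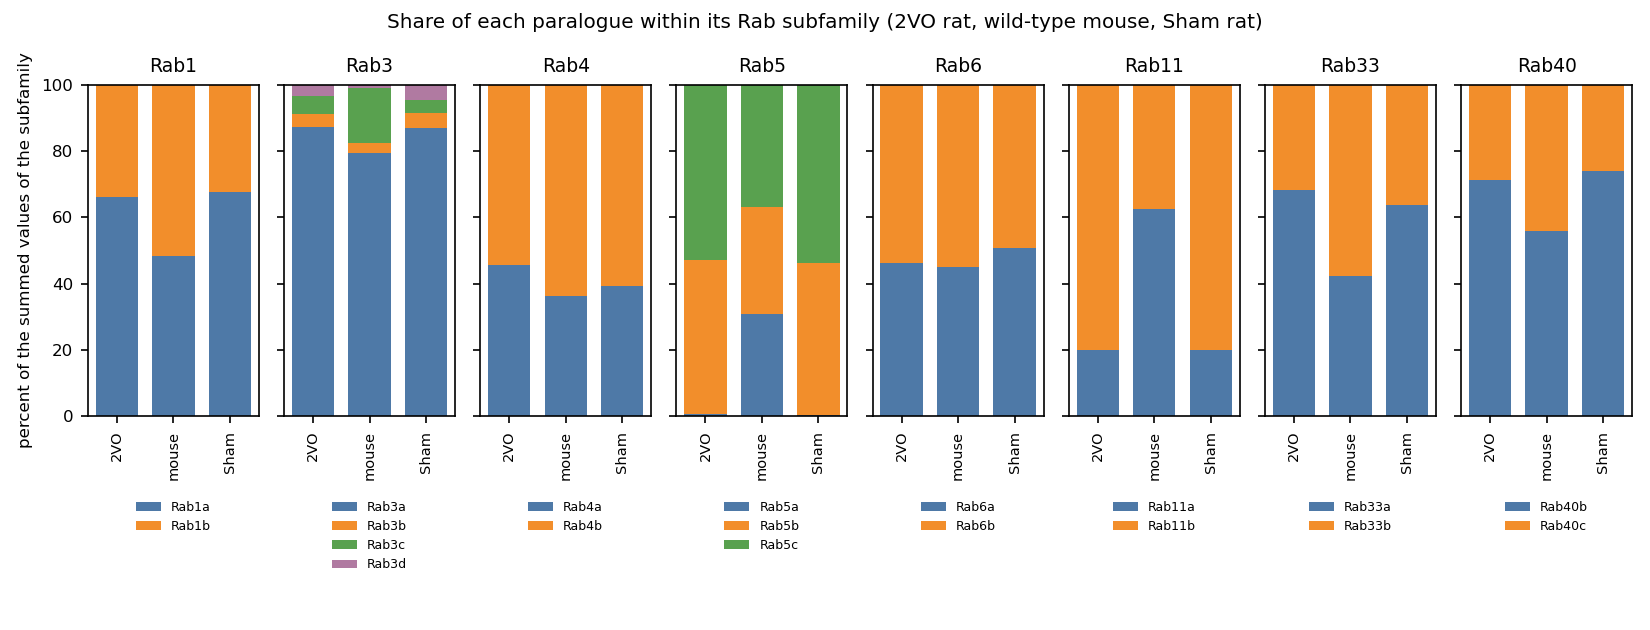
Percent of the summed values of 8 Rab subfamilies held by each paralogue, 1 stacked bar per library (2VO rat, wild-type mouse, Sham rat). Rab11a takes 20.0% in 2VO, 62.5% in the mouse and 19.9% in Sham, and Rab5a takes 31.0% in the mouse.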

How the data were processed

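Hippocampal RNA was extracted with TRIzol and made into libraries using Illumina's TruSeq kit (v2), per the labels' protocols. In the tables the authors deposited, each gene has 1 normalized signal value of unstated unit. The submitters' processing notes name fastp 0.21.0, HISAT2 2.1.0 and DESeq2, with GRCm39 and mRatBN7.2 as builds, and assign them no roles. The sources used here do not state the quantifier, annotation, filters or strandedness.

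Values were compared as deposited, without rescaling, as log2 ratios with 1 unit added, over genes averaging 1 unit or more. With 1 library per group no test was run. A count-based branch of the design was not needed, since the values are not counts. Members, role groups and lists were chosen with earlier results of these data known. Values are given for the 5 highest members of each role group and those 25% apart. In the lists, genes 1.5-fold apart and otherwise the highest and lowest ratios are named. The remaining members were added so that each is accounted for. The 8 alternatives covered the unit added, the filter, scaling and centring on a lowess trend (span 0.3). The calculation was tested on simulated data with 200 planted changes. These were larger than any Rab difference between the rats, so the test does not bear on differences of that size. Promoter windows matched 47 of 58 rat members by symbol. Calculations used pandas 2.3.3, numpy 2.4.6, statsmodels 0.14.6 and matplotlib 3.10.9 in Python 3.11.15.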

Additional observations from a re-analysis of the deposited data

How the results depend on the processing

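The single library per group and the unknown depth limit every value, and no alternative replaces a replicate. Small medians depended on the processing. Those of the family, role groups and partner lists that changed sign or moved by over 1.5 times are given here. So are the ER and Golgi and the regulated exocytosis medians. The values were rescaled by the upper quartile, by the median of ratios and by a sum leaving out the 50 most abundant genes, or centred on a lowess trend. Under these the median of all measured genes fell by 0.03 to 0.04. In that order, the Rab median was 0.047, 0.044, 0.051 and 0.052, the recycling median 0.024, 0.021, 0.028 and 0.027, and the number of Rab genes lower in 2VO 18, 18, 17 and 18. The ER and Golgi median was 0.050, 0.047, 0.054 and 0.050 in the same order. The late endosome median was 0.076 with the median of ratios and 0.074 with lowess. Partner list medians in the same order were 0.041, 0.039, 0.045 and 0.041 for GDI and prenylation, 0.00033, -0.0019, 0.0044 and -0.00051 for exchange factors, -0.018, -0.0195, -0.014 and -0.022 for GTPase activating proteins, and -0.027, -0.029, -0.023 and -0.027 for early endosome effectors. They were -0.080, -0.082, -0.077 and -0.088 for recycling effectors, -0.052, -0.054, -0.047 and -0.050 for Golgi effectors, and 0.019, 0.017, 0.023 and 0.018 for Rab phosphorylation. Late endosome effectors were at 0.071, 0.069 and 0.071 with the upper quartile, the median of ratios and lowess.

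With no filter, medians were 0.036 for GDI and prenylation, 0.047 for exocytosis effectors and -0.00397 for Rab phosphorylation. Among genes averaging 5 units or more, they were -0.018 for Rab genes outside the 4 roles, 0.036 for GDI and prenylation, -0.0086 for recycling effectors, 0.164 for late endosome effectors and 0.120 for Rab phosphorylation, and 7 Rab genes were lower. With 4 units added, Rab genes outside the roles were at -0.044, recycling effectors at -0.030, regulated exocytosis genes at 0.155 and Rab37 at 0.18. Over the 8 alternatives the early endosome median ran from 0.20 to 0.28 and the secretory median from 0.10 to 0.16.

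The sign of 6 or 7 Rab genes changed under the 4 scalings and centrings, and these were Rab6a, Rab13, Rab14, Rab21, Rab39a and Rab43 in all 4 and Rab33b in 3. The count at least 25% higher ran from 4 to 7, and 0 Rab genes were 25% lower in any of the 8 alternatives. The count at least 1.5-fold higher was 2 with 0.25 units added, where Rab37 joined Rab3c. For the mouse over Sham, the count 2-fold lower was 4 among genes averaging 5 units or more, and the count 2-fold higher was 1 with Rab5a and Rab5al1 summed, chosen after the data were seen. The cause of these changes was not tested. No paired analysis was possible because each group holds 1 library.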
